A study of Mus musculus with 6 samples.

Results

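Semaphorins, plexins, Eph receptors and ephrins were examined in RNA-seq libraries of mouse mammary tumor cells. The genes were chosen by name only, as the rows of the deposited table whose symbols begin with Sema3 to Sema7, with Plxn and a letter from a to d, or with Epha, Ephb, Efna or Efnb and a digit. This gave 31 of the 10995 listed genes: 11 semaphorins, 6 plexins, 4 A-type and 4 B-type Eph receptors, and 6 ephrins. The GENCODE M21 annotation holds 51 protein-coding genes with such names, and the other 20 were not among the listed rows and were not analysed here, among them Sema3a, Sema3e, Plxnc1, Epha3 and Ephb1. All 6 libraries came from FVB/NJ mice carrying the MMTV-PyVT transgene, in which a mammary tumor virus promoter drives the polyoma middle T oncogene in the mammary epithelium. Of these, 3 libraries were labelled wild type for Nr4a1 (WT) and 3 were labelled Nr4a1-/- (KO), from mice described as age matched, with no age given in the sources used here. Nr4a1 encodes an orphan nuclear receptor, and the question was which transcripts differ between tumor cells with and without it. The labels do not tell whether each library stands for its own animal. All p-values therefore speak of the spread among these 6 libraries, part or all of which may be technical.

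Semaphorins are secreted or membrane-bound ligands that act through plexins, large receptors whose cytoplasmic part switches off small GTPases of the Ras and Rap family, so that cells retract or change their adhesion. Class 3 semaphorins are secreted and most need a neuropilin as co-receptor, whereas classes 4 to 7 are bound to the membrane. Eph receptors are receptor tyrosine kinases that bind ephrins on neighbouring cells. A-type receptors mostly bind ephrins anchored by a lipid (Efna genes), and B-type receptors mostly bind transmembrane ephrins (Efnb genes), which also signal back into their own cell. Both systems are best known from axon guidance and blood vessel growth, and in the mammary gland they take part in cell sorting and duct formation.

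Library totals lay between 19569173 and 24188875 counts. The Nr4a1 transcript itself was not lower with the KO label: it stood at 34.5, 18.6 and 16.9 CPM (the usual depth-normalised count, on TMM-scaled library sizes) in WT replicates 1, 2 and 3 and at 25.1, 35.5 and 37.7 CPM in KO replicates 1, 2 and 3 (two-sided exact permutation test, p = 0.2, where 0.1 is the smallest possible). The sources used here do not say which part of the gene the allele disrupts. WT and KO therefore stand for the libraries as labelled in everything that follows, and every direction rests on those labels. WT replicate 1 stood apart from the other libraries, with 19.7% of all genes more than 1.5 times above or below the median of the other 5 libraries. The share was between 2.44% and 7.79% in each of the other libraries. All 10 luminal epithelial markers were listed, with a summed level of 5853 to 5972 CPM in WT and 3667 to 4776 CPM in KO. The 9 listed pericyte and smooth muscle markers (567 to 1344 CPM in WT, 1097 to 2276 CPM in KO), the 7 listed fibroblast markers (2256 to 5476 CPM in WT, 4852 to 8879 CPM in KO) and the 9 listed macrophage markers (395 to 715 CPM in WT, 728 to 1117 CPM in KO) were present as well. Only Eng and Esam were listed among 10 endothelial markers, 0 of 10 lymphocyte markers were listed, and the basal list had 9 of 10, at 1283 to 3371 CPM in WT and 2625 to 3312 CPM in KO. Of 10 Schwann cell and neuronal markers Sox10 alone was listed (332 to 367 CPM in WT, 230 to 335 CPM in KO). Of 10 adipocyte markers only Fabp4 and Lipe were listed, together at 14.1 to 15.4 CPM in WT and 38.3 to 90.2 CPM in KO. That difference lay in Fabp4, with means of 3.14 CPM in WT and 50.6 CPM in KO, while Lipe had 11.7 and 12.6 CPM. In WT, Fabp4 (52 to 93 counts), Esam (47 to 100), Rgs5 (40 to 118) and Abcc9 (36 to 85) stayed below 133 counts. No listed row had a maximum below 133 counts, so these genes were listed through their KO libraries alone. The adipocyte, endothelial and pericyte sums thus hold genes that could be listed only if higher in KO. Markers of other cell types were thus read beside the luminal ones, and in such bulk libraries fewer cells of a type and less RNA per cell cannot be told apart.

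Most guidance genes had their mean on the lower side with the KO label, and none passed the test. Of the 31 genes, 22 (71.0%) had a log2 fold change (KO over WT) below 0, where 50.6% of all 10995 genes did, and the median was -0.17 beside -0.0024 over all genes. The summed level of the 31 genes was 3678, 2888 and 2963 CPM in WT replicates 1, 2 and 3 and 2692, 2490 and 2702 CPM in KO replicates 1, 2 and 3. Every KO library was below every WT library in this sum. The mean sums were 3177 CPM ± 436 (SD, n = 3) in WT and 2628 CPM ± 119.8 (SD, n = 3) in KO. WT replicate 1 had the highest sum, and abundant genes weigh most in such a sum. The luminal marker sum was also lower in every KO library than in every WT library. Its means were 5900 CPM ± 63.4 (SD, n = 3) in WT and 4289 CPM ± 567 (SD, n = 3) in KO. Single luminal markers were less even within WT. In WT replicates 1, 2 and 3, Kit stood at 509, 72.7 and 47.3 CPM and Krt8 at 1106, 1694 and 1743 CPM. What part the luminal markers had in the lower guidance gene sum was not tested.

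By edgeR's quasi-likelihood test with Benjamini-Hochberg adjustment over all genes, 0 of the 31 genes passed at 0.05 (0% of all genes did), and the smallest adjusted p was 0.574. DESeq2 called 0 of the 31 (0.938% of the genes it tested) and limma-voom called 0. At an unadjusted edgeR p under 0.05 there were 3 genes lower in KO, Plxnb2, Efnb2 and Sema3f (9.68%, against 4.17% of all genes), and 0 higher (against 3.70%). This count of 3 (7.88% of all genes in both directions) went to 7 without WT replicate 2 (12.4% of all genes), to 6 without WT replicate 3 (6.95%) and to 1, Efnb2, without KO replicate 2 (3.53%). The libraries of the groups did not overlap for 5 genes lower in KO, namely Plxnb2, Plxna1, Efnb2, Sema3f and Epha7 (16.1%, against 9.05% of all genes), and for 3 higher in KO, namely Sema4a, Sema4g and Sema6d (9.68%, against 8.39%). Scaling by library size alone left 3 lower and 3 higher, where 17.4% of all genes did not overlap in either direction. The larger count on the lower side was thus not kept under that scaling. With 1 library left out, groups separate more easily: 14 genes did not overlap without WT replicate 1, and 13 without WT replicate 3 or KO replicate 3, where 24.3%, 27.9% and 34.7% of all genes did not.

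**Figure D1:**
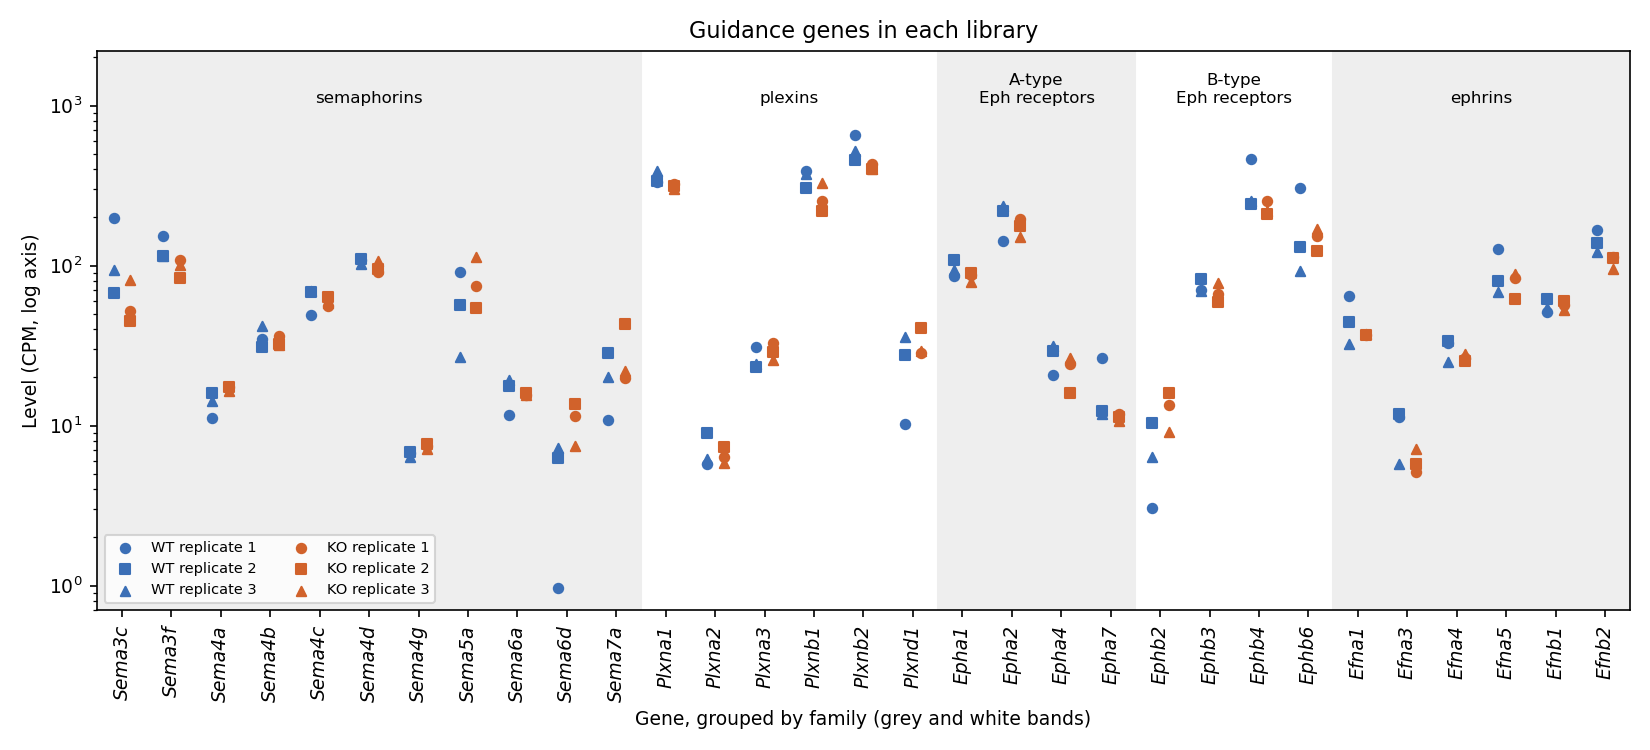
Level of each of the 31 guidance genes in every library, in CPM on a log axis; blue points are WT and orange points KO libraries, the shape gives the replicate, and bands part the families. Plxnb2 at 401 to 655 CPM is the highest gene, and the single low point at 0.969 CPM is Sema6d in WT replicate 1.

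Promoters are shown for 2 of the genes that did not overlap with KO lower (Plxnb2 and Efnb2) and 2 of those with KO higher (Sema4g and Sema6d), to set the start regions of both directions side by side. The windows hold 250 bases before and 50 after an annotated start, on the strand of the gene, 5′ to 3′, from RefSeq on GRCm38.p6. Capitals mark GC boxes, the letters GGGCGG on either strand.
Plxnb2, chr15:89180739-89181038, minus strand: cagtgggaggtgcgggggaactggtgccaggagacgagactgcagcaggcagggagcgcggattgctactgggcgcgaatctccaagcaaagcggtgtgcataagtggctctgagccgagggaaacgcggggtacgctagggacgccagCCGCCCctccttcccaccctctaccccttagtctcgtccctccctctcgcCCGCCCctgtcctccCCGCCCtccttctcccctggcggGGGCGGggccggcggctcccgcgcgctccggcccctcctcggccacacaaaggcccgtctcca
Efnb2, chr8:8661193-8661492, minus strand: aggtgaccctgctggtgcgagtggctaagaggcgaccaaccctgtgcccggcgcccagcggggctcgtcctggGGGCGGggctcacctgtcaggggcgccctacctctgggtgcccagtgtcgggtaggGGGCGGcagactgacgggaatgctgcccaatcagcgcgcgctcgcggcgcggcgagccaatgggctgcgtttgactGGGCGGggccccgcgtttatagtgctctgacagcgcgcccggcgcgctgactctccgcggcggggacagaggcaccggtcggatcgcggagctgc
Sema4g, chr19:44989094-44989393, plus strand: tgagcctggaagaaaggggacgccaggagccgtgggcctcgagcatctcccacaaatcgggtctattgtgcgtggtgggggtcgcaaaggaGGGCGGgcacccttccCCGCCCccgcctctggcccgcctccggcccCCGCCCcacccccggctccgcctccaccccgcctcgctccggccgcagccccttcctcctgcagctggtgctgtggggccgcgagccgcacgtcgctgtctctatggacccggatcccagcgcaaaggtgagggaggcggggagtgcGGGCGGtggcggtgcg
Sema6d, chr2:124089719-124090018, plus strand: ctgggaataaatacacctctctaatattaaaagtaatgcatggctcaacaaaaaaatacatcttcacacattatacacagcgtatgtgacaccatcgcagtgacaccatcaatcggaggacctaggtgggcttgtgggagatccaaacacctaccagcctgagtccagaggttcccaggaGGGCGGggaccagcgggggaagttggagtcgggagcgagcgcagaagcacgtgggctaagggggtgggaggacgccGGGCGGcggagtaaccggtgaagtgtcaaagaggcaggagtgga

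RefSeq windows were found for 28 of the 31 genes, 40 windows in all. The NBRE, the octamer AAAGGTCA to which Nr4a1 is known to bind as a monomer, was in 0 of these 40 windows on either strand, beside 0.875% of the 10973 windows of listed genes and 1.51% of all 32851 windows. AP-1 sites, the letters TGANTCA on either strand, were in 2 windows, of Sema4c and Sema4d (5%, beside 5.04% for listed genes and 7.81% for all). GC boxes were in 33 windows (82.5%), beside 64.7% for listed genes and 35.7% for all windows. The 4 windows shown hold 4, 3, 4 and 2 GC boxes in the order printed, so both directions have them. Plxnb2 and Sema6d each have 1 further window, with 3 and 0 GC boxes. These are matches of letters in 1 stretch near a start, and several windows belong to the same gene.

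Plexins, the receptors of semaphorins, had the highest mean summed level of the 5 families per kilobase of exon, although the B-type Eph receptors exceeded them in WT replicate 1, and their summed level was lower in every KO library than in every WT library. The sum over the 6 listed plexins was 168, 136 and 157 CPM per kb in WT replicates 1, 2 and 3 and 126, 119 and 127 CPM per kb in KO replicates 1, 2 and 3. That is 27.6% of the per-kilobase level of all 31 genes. The median log2 fold change of the family was -0.14, with 4 of 6 genes below 0. It was -0.23 without WT replicate 1, -0.069 without WT replicate 2 and -0.093 without KO replicate 3.

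Plxnb2, a receptor of class 4 semaphorins (ENSMUSG00000036606.17, chromosome 15, 89155549 to 89180788, minus strand, GRCm38), had the highest mean level per kilobase of all 31 genes, although Ephb4 exceeded it in WT replicate 1. It stood at 654.8, 458.8 and 518 CPM in WT replicates 1, 2 and 3 and at 428, 402 and 401 CPM in KO replicates 1, 2 and 3. All KO libraries were below all WT libraries, and they spread less: the highest KO library was 1.07 times the lowest, against 1.43 times in WT. The means were 544 CPM ± 100.5 (SD, n = 3) in WT and 410.4 CPM ± 15.5 (SD, n = 3) in KO, a log2 fold change of -0.41 (SE 0.14, edgeR adjusted p = 0.574, unadjusted p = 0.0287), which was -0.25 without WT replicate 1. Plxnb1, the receptor of Sema4d, stood at 389.8, 304 and 372 CPM in WT and at 254, 219 and 329 CPM in KO. KO replicate 3 lay above WT replicate 2, so the groups overlapped, with a log2 fold change of -0.41 (SE 0.18, edgeR adjusted p = 0.574). A gene on the opposite strand, Gm7628, covers 2.7% of the exonic bases of Plxnb1.

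Plxna1, which works with neuropilins as a receptor of class 3 semaphorins, stood at 335, 336 and 389.6 CPM in WT and at 322, 313 and 299.9 CPM in KO. These groups did not overlap either, with a small log2 fold change of -0.18 (SE 0.09, edgeR adjusted p = 0.574), or -0.10 without WT replicate 3. The opposite-strand gene Gm26811 covers 10.7% of its exonic bases. Plxnd1, the receptor of Sema3e and a gene known from endothelial cells, stood at 10.2, 27.6 and 35.9 CPM in WT and at 28.5, 40.5 and 29.4 CPM in KO. WT replicate 1 had 0.322 times the mean of the other WT libraries, and the log2 fold change of 0.42 (SE 0.45) was 0.05 without it, 0.79 without WT replicate 3 and 0.23 without KO replicate 2. Plxna3, another receptor of class 3 semaphorins, had a log2 fold change of 0.16 (SE 0.15), which lay between 0.06 without KO replicate 1 and 0.29 without WT replicate 1. Plxna2, a receptor of Sema6a, with -0.11 (SE 0.22), had the lowest mean level per kilobase of all 31 genes, at 0.407 in WT and 0.378 in KO.

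**Figure D2:**
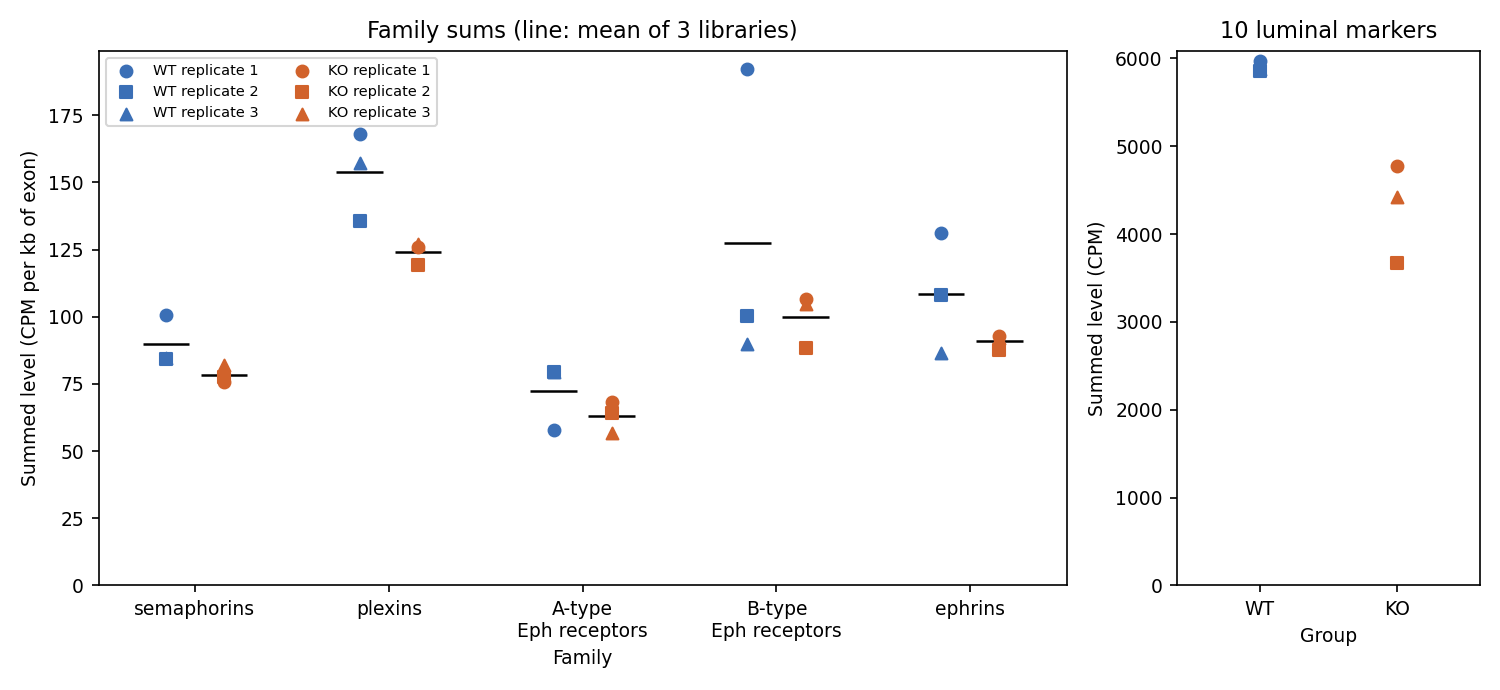
Left, summed level of each family in every library, in CPM per kb of exon; right, summed CPM of 10 luminal epithelial markers; blue points are WT and orange points KO libraries, the shape gives the replicate, and lines are means of 3 libraries. Plexin sums of 119 to 127 in KO lie below those of 136 to 168 in WT, and the B-type Eph receptor sum of 192 in WT replicate 1 lies far above the other libraries.

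Semaphorins, the ligands, were divided, with 6 of 11 genes below 0 and 5 above. The median over the family was -0.05 on the log2 scale. Their summed level was 100.6, 84.3 and 84.8 CPM per kb in WT and 75.5, 77.7 and 82.0 CPM per kb in KO. The KO libraries all lay below the WT libraries here too, by little between KO replicate 3 and WT replicate 2. The family median was -0.12 without WT replicate 1, and it changed sign to 0.01 without WT replicate 2 and to 0.10 without WT replicate 3. It was -0.03 without KO replicate 1.

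Both listed class 3 semaphorins, which are secreted, had lower means in KO. Sema3f, a ligand of neuropilin 2, stood at 154, 116 and 114 CPM in WT and at 108, 84.2 and 100.7 CPM in KO. Groups did not overlap, with a log2 fold change of -0.39 (SE 0.15, edgeR adjusted p = 0.574, unadjusted p = 0.0444), or -0.24 without WT replicate 1. Sema3c, another neuropilin ligand, stood at 198, 67.4 and 93.7 CPM in WT and at 52.2, 44.9 and 81.5 CPM in KO. WT replicate 1 was 2.45 times the mean of the other WT libraries, and KO replicate 3 lay above WT replicate 2. The log2 fold change of -1.01 (SE 0.45, edgeR adjusted p = 0.574) was the lowest of the 31 genes, and it was -0.44 without WT replicate 1.

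Of the 5 class 4 semaphorins, which span the membrane, Sema4a and Sema4g had log2 fold changes above 0, and the other 3 lay between -0.13 and -0.07. Sema4d, the ligand of Plxnb1 known from lymphocytes and tumor cells, had about the same mean level per kilobase as Sema4c, at 13.9 and 13.6 CPM per kb in WT and 12.7 and 12.9 CPM per kb in KO. Sema4d stood at 108, 109.8 and 102 CPM in WT and at 91.0, 95.3 and 107 CPM in KO, with a log2 fold change of -0.13 (SE 0.08, edgeR adjusted p = 0.589), which was -0.08 without KO replicate 1 and -0.20 without KO replicate 3. Sema4a, known from immune cells, stood at 11.1, 16.0 and 14.3 CPM in WT and at 17.5, 17.5 and 16.5 CPM in KO, with no overlap and a log2 fold change of 0.31 (SE 0.15, edgeR adjusted p = 0.574), or 0.18 without WT replicate 1. Sema4g was low and steady, at 6.74, 6.83 and 6.40 CPM in WT and 7.43, 7.63 and 7.12 CPM in KO. Its groups did not overlap, but its log2 fold change of 0.15 (SE 0.13, edgeR adjusted p = 0.653) was close to its error. For Sema4b and Sema4c, a ligand of Plxnb2, the log2 fold changes were -0.10 (SE 0.13) and -0.07 (SE 0.15), and the opposite-strand gene D430040D24Rik covers 7.3% of the exonic bases of Sema4c.

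Of the transmembrane genes Sema5a, Sema6a and Sema6d and the lipid-anchored Sema7a, all but Sema6a had a log2 fold change above 0, each with a wide spread between libraries. Sema6d, a ligand of Plxna1, stood at 0.969, 6.24 and 7.30 CPM in WT (20, 136 and 155 counts) and at 11.5, 13.7 and 7.47 CPM in KO (281, 326 and 148 counts). KO replicate 3 lay just above WT replicate 3, so the groups parted by little, and the range over the 6 libraries was 14.1-fold, the widest of the 31 genes. Its log2 fold change of 1.17 (SE 0.67, edgeR adjusted p = 0.581) was the highest of the 31 genes, and it was 0.69 without WT replicate 1. Sema7a, which acts on integrins and Plxnc1, was lowest in WT replicate 1, at 10.8 CPM, and highest in KO replicate 2, at 43.1 CPM. The other 4 libraries lay between 19.95 and 28.6 CPM, so KO replicate 2 alone was above all WT libraries. Its log2 fold change was 0.51 (SE 0.45), 0.88 without WT replicate 2, 0.22 without WT replicate 1 and 0.08 without KO replicate 2. Sema5a, which carries thrombospondin repeats, stood at 91.8, 56.8 and 27.0 CPM in WT and at 74.6, 54.0 and 112.7 CPM in KO, so the groups overlapped widely. Its log2 fold change went from 0.46 (SE 0.48) to 0.94 without WT replicate 1 and to 0.12 without WT replicate 3. Sema6a, a ligand of Plxna2, stood at 11.6, 17.6 and 19.4 CPM in WT and at 15.5, 15.9 and 15.5 CPM in KO, with a log2 fold change of -0.05 (SE 0.20).

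**Figure D3:**
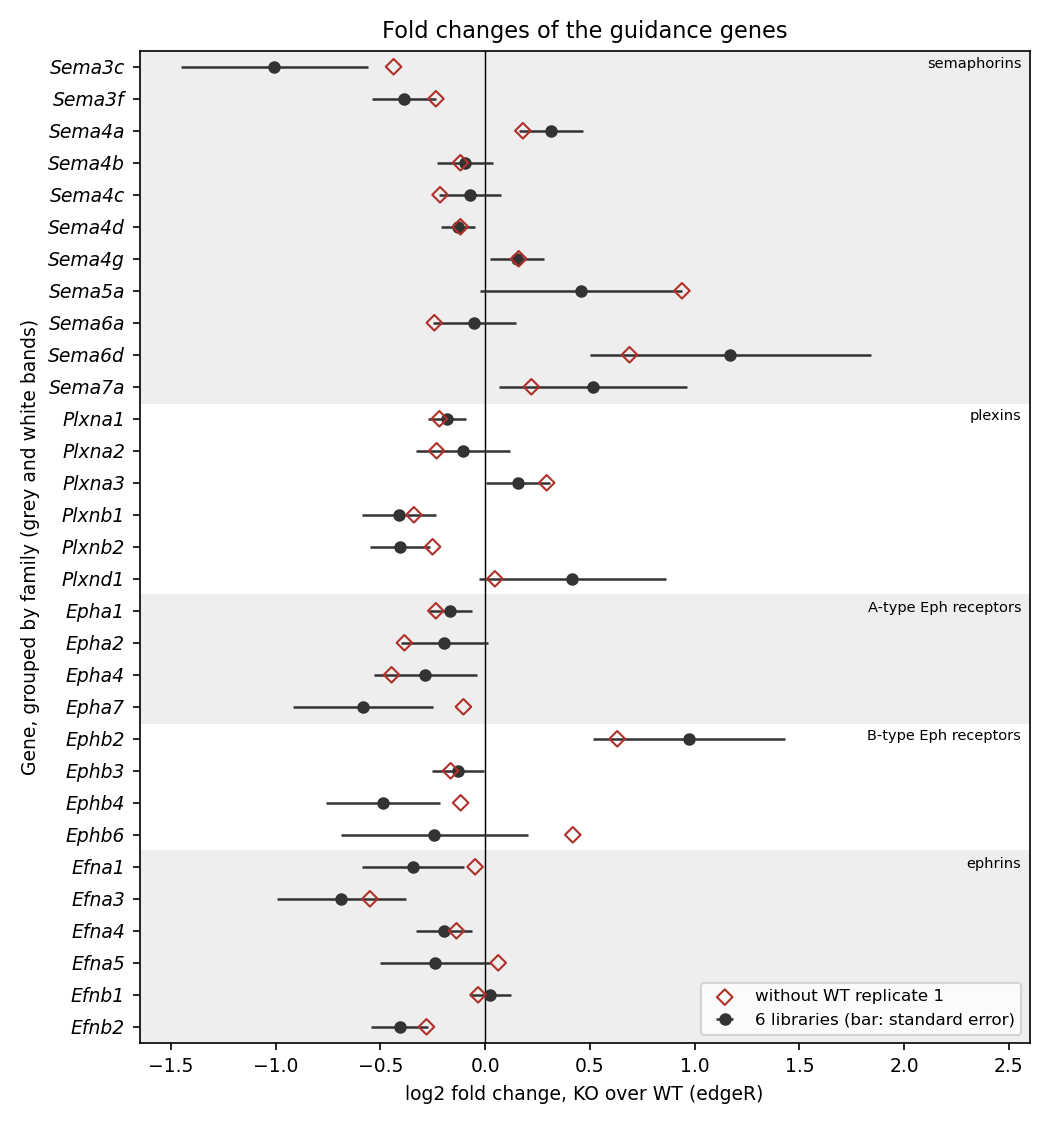
Log2 fold change (KO over WT, edgeR) of each of the 31 genes, grouped by family; filled points with bars are the estimate from 6 libraries and its standard error, and open diamonds the estimate without WT replicate 1. Sema3c moves from -1.01 to -0.44, Ephb6 from -0.24 to 0.42 and Sema5a from 0.46 to 0.94, while Plxnb1 moves from -0.41 to -0.34 and Sema4d from -0.13 to -0.12.

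All 4 listed A-type Eph receptors had a log2 fold change below 0, with a family median of -0.24. Epha2, a receptor of ephrin-A1 that is often abundant in breast tumor cells, had the highest mean level of them per kilobase. It stood at 143, 219.6 and 236 CPM in WT and at 195, 178 and 150.1 CPM in KO, so WT replicate 1 was the lowest of all 6 libraries. For Epha2 the log2 fold change of -0.20 (SE 0.21, edgeR adjusted p = 0.707) was -0.39 without WT replicate 1 and -0.05 without WT replicate 3. Epha1 stood at 86.7, 107.7 and 93.5 CPM in WT and at 87.6, 89.7 and 78.9 CPM in KO, with a log2 fold change of -0.17 (SE 0.10, edgeR adjusted p = 0.585), or -0.08 without WT replicate 2. Zyx on the opposite strand covers 6.0% of its exonic bases. Epha4, which binds ephrins of both types, had a log2 fold change of -0.29 (SE 0.24), which was -0.45 without WT replicate 1 and -0.09 without KO replicate 2.

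Epha7, a receptor of ephrin-A5, did not overlap between the groups but rested on a single high library. It stood at 26.5, 12.4 and 11.9 CPM in WT and at 11.8, 11.3 and 10.8 CPM in KO, where WT replicate 3 and KO replicate 1 nearly met. A log2 fold change of -0.58 (SE 0.33, edgeR adjusted p = 0.581) was -0.10 without WT replicate 1.

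B-type Eph receptors had 3 of 4 genes below 0, and their levels turned on WT replicate 1. Their summed level was 192 CPM per kb in WT replicate 1, 100.4 and 89.7 in WT replicates 2 and 3, and 107, 88.4 and 105 in KO. Without WT replicate 1 the family median went from -0.19 to 0.15, without WT replicate 3 to -0.36, without KO replicate 3 to -0.29 and without KO replicate 2 to -0.08. Ephb4, the receptor of ephrin-B2 and a marker of veins that mammary epithelium also makes, stood at 466, 244 and 252 CPM in WT and at 255, 210.5 and 221 CPM in KO. Its log2 fold change of -0.49 (SE 0.27, edgeR adjusted p = 0.579) was -0.12 without WT replicate 1. Ephb6, a family member whose kinase domain is inactive, stood at 306, 130.2 and 92.4 CPM in WT and at 154, 124 and 169 CPM in KO. WT replicate 3 was the lowest and WT replicate 1 the highest of all 6 libraries, 3.31-fold apart, so the whole range of the gene lay within WT. The log2 fold change of -0.24 (SE 0.45, edgeR adjusted p = 0.839) became 0.42 without WT replicate 1.

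Ephb2, a receptor with an active kinase that also binds ephrin-A5, was lowest in WT replicate 1, where Ephb4 was highest. It stood at 3.05, 10.4 and 6.35 CPM in WT (63, 226 and 135 counts) and at 13.5, 16.1 and 9.18 CPM in KO (329, 384 and 182 counts), so KO replicate 3 lay below WT replicate 2. It had a log2 fold change of 0.97 (SE 0.46, edgeR adjusted p = 0.574), which was 1.46 without WT replicate 2 and 0.63 without WT replicate 1. Ephb3 stood at 59.0 to 82.7 CPM over the 6 libraries, with a log2 fold change of -0.13 (SE 0.13), which lay between -0.24 without KO replicate 3 and -0.04 without KO replicate 2.

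Ephrins, the ligands of Eph receptors, had 5 of 6 genes below 0 and a median of -0.29 on the log2 scale, which was -0.45 without WT replicate 3 and -0.09 without WT replicate 1. Their summed level was 131, 108 and 86.5 CPM per kb in WT and 92.8, 87.7 and 92.2 CPM per kb in KO, so WT replicate 3 was the lowest of all and the groups overlapped. Efnb2, the transmembrane ligand of Ephb4 and a marker of arteries (ENSMUSG00000001300.16, chromosome 8, 8617434 to 8661242, minus strand, GRCm38), stood at 166, 138 and 122 CPM in WT and at 114, 112 and 95.1 CPM in KO. Every KO library was below every WT library, with means of 142 CPM ± 22.2 (SD, n = 3) in WT and 107 CPM ± 10.3 (SD, n = 3) in KO. This was a log2 fold change of -0.41 (SE 0.13, edgeR adjusted p = 0.574, unadjusted p = 0.0225), the smallest unadjusted p of the 31 genes. It was -0.28 without WT replicate 1, and the unadjusted p stayed under 0.05 with any 1 library left out but KO replicate 3. Per kilobase, Ephb4 was 4.14, 2.62 and 3.04 times Efnb2 in WT and 3.31, 2.78 and 3.43 times in KO, so this receptor to ligand ratio overlapped between the groups. Efnb1, the other listed B-type ephrin, lay between 51.3 and 61.9 CPM in all 6 libraries, with a log2 fold change of 0.02 (SE 0.10).

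Among the lipid-anchored ephrins, Efna1, the ligand of Epha2, had the highest mean level per kilobase. It stood at 64.8, 44.4 and 32.5 CPM in WT and at 37.0, 37.1 and 37.6 CPM in KO. The KO libraries were within 1.02-fold of each other and lay inside the WT range, which spanned 1.99-fold. A log2 fold change of -0.34 (SE 0.24, edgeR adjusted p = 0.608) was -0.05 without WT replicate 1 and -0.55 without WT replicate 3. Efna5 stood at 127, 80.5 and 68.7 CPM in WT and at 83.6, 61.9 and 88.3 CPM in KO, with a log2 fold change of -0.24 (SE 0.26, edgeR adjusted p = 0.714) that became 0.06 without WT replicate 1. Efna3 stood at 11.4, 11.7 and 5.79 CPM in WT and at 5.13, 5.74 and 7.12 CPM in KO. Here WT replicate 3 lay among the KO libraries, with a log2 fold change of -0.69 (SE 0.31, edgeR adjusted p = 0.574). Efna4 had a log2 fold change of -0.19 (SE 0.13), which lay between -0.31 without WT replicate 3 and -0.12 without WT replicate 2. The opposite-strand genes Gm15998 and 4731419I09Rik cover 14.1% of the exonic bases of Efna3 and 10.5% of those of Efna4. Whether counting used strand is unknown, so for these genes and the others named with such an overlap, reads of the partner may be included.

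Across the families, WT replicate 1 was the library in which most guidance genes stood apart. In it, 13 of the 31 genes (41.9%) lay more than 1.5 times from the median of the other 5 libraries, beside 19.7% of all genes. Above were Efna1, Efna3, Efna5, Epha7, Ephb4, Ephb6, Plxnb2, Sema3c and Sema5a, and below were Ephb2, Plxnd1, Sema6d and Sema7a. KO replicate 2 came next with 6 genes (19.4%, beside 7.79% of all genes): Ephb2, Sema6d and Sema7a above, and Epha4, Plxnb1 and Sema3c below. Ephb2, Sema6d and Sema7a were thus low in WT replicate 1 and high in KO replicate 2. Plxnd1 (10.2 and 40.5 CPM) and Sema4a (11.1 and 17.5 CPM) also had their lowest and highest levels in these libraries. Neither was more than 1.5 times above the median of the others in KO replicate 2. The pericyte and smooth muscle markers had their lowest sum, 567 CPM, in WT replicate 1 and their highest, 2276 CPM, in KO replicate 2. Acta2, which is on the basal list too, held 153.6 and 1399 CPM of these, while Notch3 went the other way (85.9 and 57.0 CPM). The fibroblast markers were lowest and highest in the same 2 libraries, at 2256 and 8879 CPM. So were the endothelial genes Eng and Esam together, at 14.4 and 118 CPM. The basal sum was also lowest in WT replicate 1, at 1283 CPM, but highest in WT replicate 2 (3371 CPM, beside 3312 CPM in KO replicate 2). Its 9 genes did not move together, with 5 log2 fold changes above 0 and 4 below. Krt5, Krt14 and Krt17 stood at 106.8, 902 and 920.5 CPM in WT replicate 2 and at 58.7, 313 and 525 CPM in KO replicate 2. Acta2 and Vim stood at 785 and 471 CPM in WT replicate 2 and at 1399 and 835 CPM in KO replicate 2. The macrophage sum was lowest in WT replicate 3, at 395 CPM, and highest in KO replicate 1, at 1117 CPM. Whether Ephb2, Sema6d, Sema7a, Plxnd1 or Sema4a came from any of these cells was not tested.

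**Figure D4:**
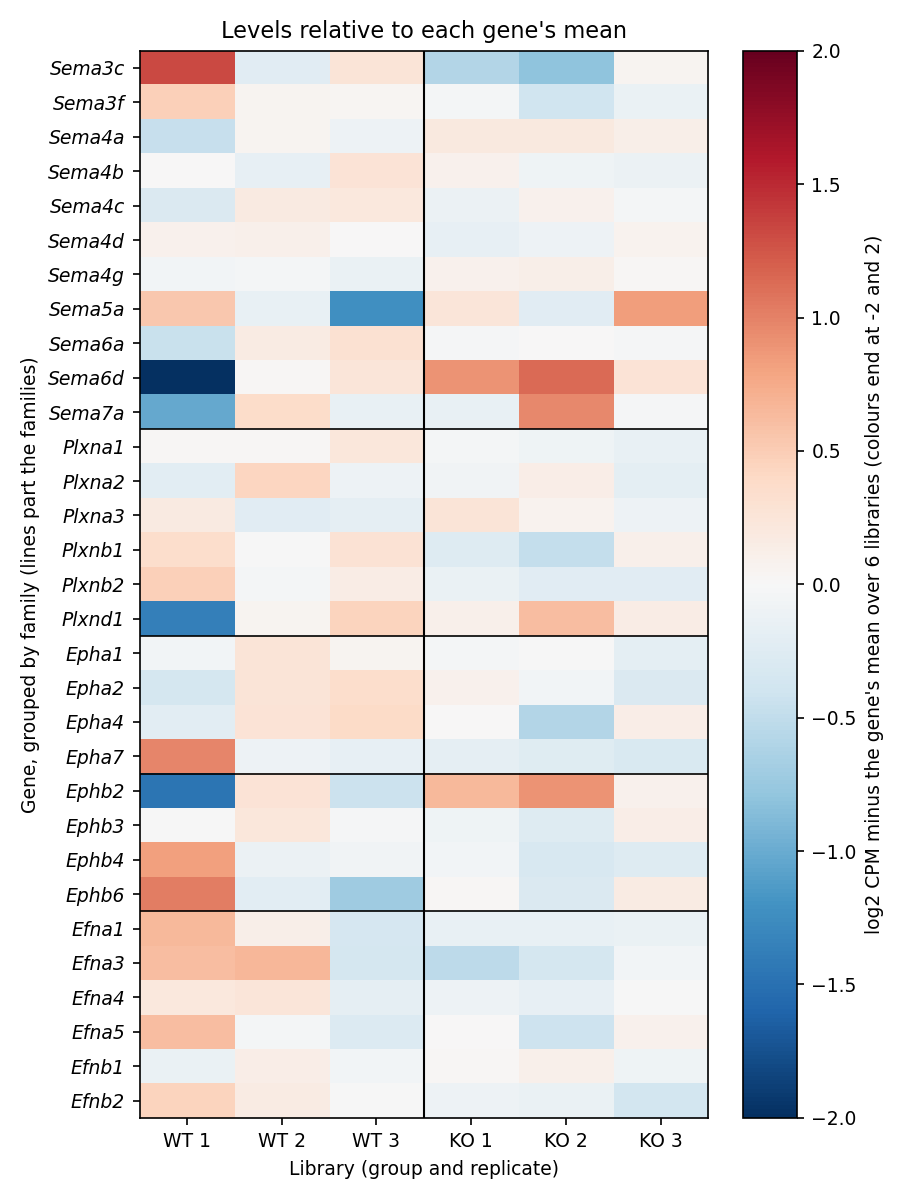
Level of each gene in each library as log2 CPM minus the gene's mean over the 6 libraries, red above and blue below; families are parted by lines, WT libraries are left and KO libraries right of the vertical line. The first column, WT replicate 1, holds the deepest colours in both directions, with Sema3c and Ephb6 above and Sema6d, Ephb2 and Plxnd1 below.

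Partners outside these families lay on both sides of 0. Of 110 co-receptors, effectors and genes of other guidance families, 82 were listed, and 36 had a log2 fold change above 0 and 46 below. Their median was -0.03. The edgeR test called 0 of them, with 3 higher (3.66%) and 4 lower (4.88%) at an unadjusted p under 0.05, near the 3.70% and 4.17% of all genes. DESeq2 called 1 of the 82, beside 0.938% of the genes it tested. That gene was Ntn4, a netrin of basement membranes, which stood at 28.5, 31.5 and 26.6 CPM in WT and at 41.9, 48.2 and 42.5 CPM in KO. It had a log2 fold change of 0.61 (SE 0.10, edgeR adjusted p = 0.528, DESeq2 adjusted p = 0.000537), which was also 0.61 without WT replicate 1. Of the neuropilins, the co-receptors of class 3 semaphorins, Nrp2 stood at 136, 128 and 100.9 CPM in WT and at 100.7, 127 and 137 CPM in KO, with a log2 fold change of -0.0017 (SE 0.16). Nrp1, which is also known from vessels, stood at 11.5, 29.2 and 27.8 CPM in WT and at 41.3, 56.5 and 18.3 CPM in KO, with a log2 fold change of 0.76 (SE 0.51), or 0.44 without WT replicate 1. Met, a kinase that associates with B-type plexins, had a log2 fold change of -0.47 (SE 0.27), or -0.25 without WT replicate 1.

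Among 34 listed effectors of plexins, 15 lay above 0 and 19 below, and among 30 listed effectors and sheddases of ephrin signalling 11 lay above and 19 below. Of these 30, 3 were lower at an unadjusted edgeR p under 0.05 (10%, against 4.17% of all genes) and 0 higher. They were Ptpn13, Pick1 (log2 fold change -0.45, SE 0.16) and Cnksr1 (-0.36, SE 0.10). Groups did not overlap for 5 of the 30 lower in KO (16.7%, against 9.05%) and 1 higher (3.33%, against 8.39%). Mical1, an oxidase that takes actin filaments apart downstream of plexins, stood at 12.5, 19.9 and 14.9 CPM in WT and at 20.2, 31.8 and 21.2 CPM in KO (log2 fold change 0.63, SE 0.25, edgeR adjusted p = 0.574). Rap1a, the GTPase that plexins switch off, had 0.26 (SE 0.10), and Cdk5, on the same list, had -0.17 (SE 0.07). Ptpn13, a phosphatase that binds B-type ephrins, stood at 181, 107 and 211 CPM in WT and at 105.5, 94.8 and 84.1 CPM in KO (log2 fold change -0.81, SE 0.26, edgeR adjusted p = 0.574). Of the 28 genes in the netrin, Slit and related guidance families 11 were listed, 6 above and 5 below 0. Slit2 shows the same single library as the guidance genes above, at 192, 29.9 and 25.7 CPM in WT and 30.1, 31.2 and 52.1 CPM in KO, with a log2 fold change of -1.13 (SE 0.83) that was 0.44 without WT replicate 1.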

How the data were processed

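Gene-level read counts, not normalized, are what the authors deposited, in 1 table with a column for each of the 6 libraries. Per the submitters' processing notes, CASAVA 1.8, HISAT2 and featureCounts were used with the mouse build GRCm38 (mm10). Not given in the sources used here are the annotation, whether counting used strand, and how multiply aligned reads were treated. No row has a maximum below 133 counts, so lowly expressed genes were not analysed here. Counts were tested in R 4.3.3 with edgeR 4.0.16 (filterByExpr, which removed 0 genes, TMM scaling, robust quasi-likelihood F test, group as the only term) over all 10995 genes, with Benjamini-Hochberg adjustment. Standard errors are the log2 fold change divided by the root of F. CPM are edgeR's depth-normalised counts on TMM-scaled library sizes. DESeq2 1.42.0 and limma-voom (limma 3.58.1) were alternatives, as were the scaling, the filter, a replicate block and each library left out. The script was tested on simulated data. Levels per kilobase use the union of exons in GENCODE M21 (GRCm38), whose symbols matched all 31 genes. Up to 10.9% of the 31-base words of a guidance gene's longest transcript (Efna3) occur in other genes. No pair of libraries agreed within counting noise. The closest pair carried opposite labels, WT replicate 2 and KO replicate 1, with a chi-square of 23.3 times its degrees of freedom. The closest pairs with the same label were WT replicates 2 and 3 (27.1 times) and KO replicates 1 and 2 (34.1 times). The genes, lists and alternatives were chosen with earlier results of these data known. The rule for giving a value in every library was an unadjusted p under 0.05 or, in each family, the 2 highest levels per kilobase and the smallest p; other genes given that way were chosen after their values were seen.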

Additional observations from a re-analysis of the deposited data

How the results depend on the processing

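The count of 0 called guidance genes held under every alternative run, namely the other scalings, filters and tests, a threshold of 0.1, the replicate block and each library left out. Over all genes the count was 0 as well, except for 103 genes with the DESeq2 test and 2 without WT replicate 2. The steady 0 therefore says little about the guidance genes in particular. No guidance gene changed sign except when a library was left out. The number at an unadjusted p under 0.05 was 3 (7.88% of all genes), and it was 7 with the DESeq2 test (10.7% of all genes), 5 with the replicate block (7.84%), and 1 to 7 with 1 library left out (3.53% to 12.4%). Groups did not overlap for 8 genes (17.4% of all genes), for 6 with scaling by library size alone (17.4%), and for 8 to 14 with 1 library left out (23.3% to 34.7%). The ephrin median of -0.29 ranged from -0.45 to -0.093. With 1 library left out, log2 fold changes ranged from -0.41 to 0.062 for Efna5, -0.034 to 0.10 for Efnb1, -0.54 to 0.42 for Ephb6, -0.23 to 0.12 for Plxna2, -0.20 to 0.034 for Sema4b, -0.22 to 0.020 for Sema4c and -0.24 to 0.10 for Sema6a. The cause was not tested. Replicate numbers gave no clear pairing: deviations of same-numbered libraries correlated over genes at -0.11, 0.35 and -0.25, and WT replicate 1 correlated best with KO replicate 3 (0.35). With 3 libraries a group these correlations are tied to each other, so they cannot decide whether the numbers mark a pairing. Requiring a mean count of 200 left 27 of the 31 genes, 20 of them below 0. At 3 libraries a group, a fold change that did not pass is not shown to be absent, least of all for Sema6d and Ephb2, whose WT libraries held as few as 20 and 63 counts.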
